A study of Mus musculus with 14 samples.

Results

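Solute carrier genes were followed in RNA-seq of mouse colon epithelium, to describe how the transporters of each kind of substrate stand in WT and Smad4-deleted epithelium on water and after early DSS injury. A gene was taken when its mm9 symbol was a protein-coding Slc symbol made of a family number, letters and a member number, and when it held at least 50 reads in each of at least 7 of the 14 libraries. Of 37680 genes in the count table, 347 carried such a symbol, 140 of these stayed under the count minimum, 7 were left out by name (Slc40a1, Slc11a2, Slc26a3, Slc9a3, Slc4a4, Slc5a8 and Slc12a2), and 200 genes of 42 families remained. The minimum was reached in all 14 libraries by 168 of the 200 and in fewer by 32. Just outside it stood Slc26a6, with 50 reads or more in 6 libraries, and just inside it stood Slc18a2, Slc2a6 and Slc39a6, with 7 libraries each.

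The libraries were made by polyA enrichment from the epithelium that EDTA releases from the whole colon of adult mice. WT mice and mice with Smad4 deleted (Smad4 KO) either drank water, with 4 libraries per genotype, or 2.5% dextran sulfate sodium (DSS), a sulfated polysaccharide that damages the colonic mucosa, for 3 d, with 3 libraries per genotype. Deletion was driven in Smad4 f/f mice by a tamoxifen-inducible Cre under the villin promoter, which restricts it to intestinal epithelium, and the study's methods name the transgene for the mutants and for controls alike, without saying whether WT mice received tamoxifen. Each library is taken as 1 mouse, and p-values measure the spread between these libraries.

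Solute carriers are membrane proteins that move small molecules down a gradient or against it by coupling to sodium, protons or a counter-substrate, and they are grouped into families by sequence. In the colon, carriers of the luminal and basolateral membranes take up short-chain fatty acids, vitamins and ions and feed the epithelium with glucose and amino acids. Other members work inside the cell, in the mitochondrial inner membrane, in the Golgi, where they load nucleotide sugars for mucin and membrane glycans, and in vesicles and lysosomes. Smad4 is the common partner of the receptor-activated Smads in TGF-β and BMP signalling and binds DNA as part of their complexes.

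Total counts ran from 12882827 to 26087231 per library, and the 200 genes held 1.01% to 1.72% of them. Counts-per-million values (CPM) after TMM scaling are used below to compare libraries, and the same values per kilobase of exon (RPKM) to compare genes. Smad4 stood at 122, 159, 135 and 118 CPM in WT on water, 158, 37.0, 46.8 and 35.1 CPM in the libraries labelled Smad4 KO on water, 170.2, 182 and 174 CPM in WT after DSS and 43.9, 40.4 and 42.8 CPM in Smad4 KO after DSS. Smad4 in the library labelled Smad4 KO water replicate 1 was thus within the WT range, and the library stayed in the group of its label. The study's figure legends give fewer Smad4 KO mice on water than there are libraries with that label. Reads on mitochondrial genes took 30.6% and 32.8% of WT water replicates 3 and 4 and 21.4% of Smad4 KO water replicate 4, against 4.05% to 8.23% elsewhere. Epithelial markers (Epcam, Cdh1, Vil1, Krt8, Krt18 and Krt19) summed to 10948 to 17985 CPM. Fibroblast markers (Col1a1, Col1a2, Col3a1, Dcn, Lum and Pdgfra) summed to 0.896 to 4.06 CPM in WT and 2.98 to 24.8 CPM in Smad4 KO on water, and to 0.276 to 1.89 CPM in WT and 7.21 to 12.97 CPM in Smad4 KO after DSS, with 3 of the 4 that passed the count filter called higher in the latter comparison. Smooth muscle, endothelial, myeloid and lymphoid lists of 6 genes each summed to at most 22.4, 10.6, 20.8 and 17.2 CPM in any library, with Emcn at 0 throughout.

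The 200 genes spanned 0.383 to 748 RPKM, averaged over the 14 libraries, with a median of 7.40, against 5.33 over all 15127 genes tested. The highest 6 were Slc25a5 (748 RPKM, the mitochondrial exchanger of ADP and ATP), Slc6a14 (175 RPKM, an amino acid transporter), Slc44a4 (169.9 RPKM, a choline transporter-like protein), Slc25a3 (161 RPKM, the mitochondrial phosphate carrier), Slc35c1 (101 RPKM, the Golgi carrier of GDP-fucose) and Slc35a1 (89.5 RPKM, the carrier of CMP-sialic acid). Mitochondrial carriers formed the largest group with 37 genes, followed by amino acid and peptide transporters with 33, metal ion and heme transporters with 25, and carriers of inorganic ions and of nucleotide sugars with 20 each. Median RPKM was highest among the 8 genes of lipid and choline transport (13.4) and lowest among the 7 of nucleoside and nucleotide transport (2.76).

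**Figure D1:**
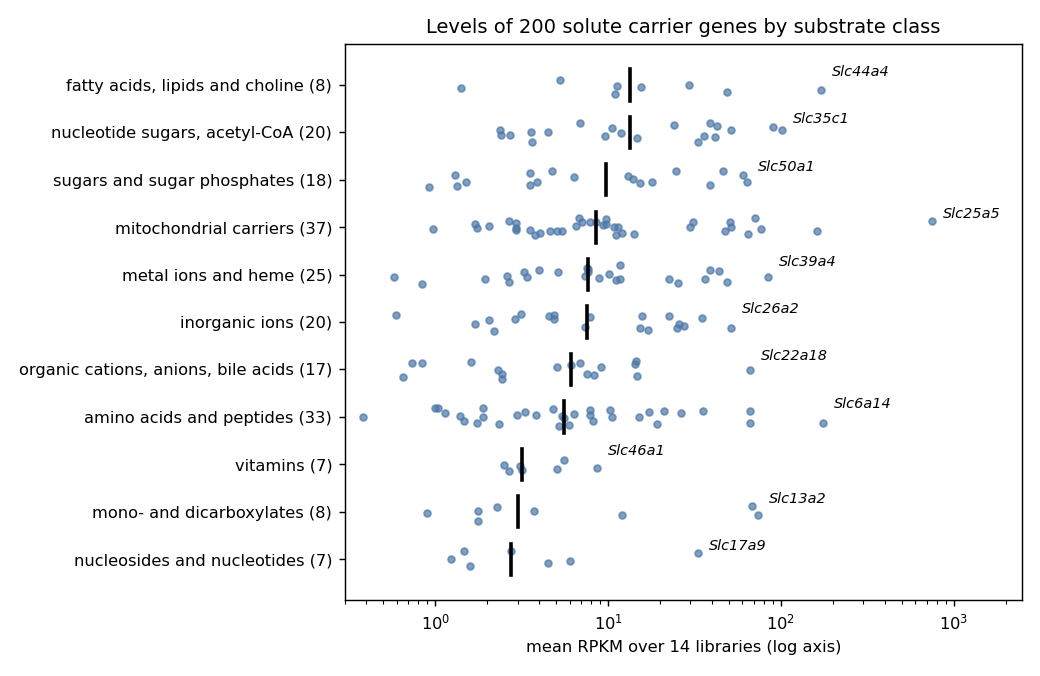
Mean RPKM over the 14 libraries (x axis, log scale) of the 200 genes (points) by substrate class (rows, number of genes in parentheses), with the class median as a bar and the highest gene named. Slc25a5 at 748 RPKM stands above all others, and each class holds genes under 3 RPKM.

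Each comparison was tested on its own libraries with edgeR's quasi-likelihood test over 15127 genes, with Benjamini-Hochberg adjustment and a threshold of 0.05. After DSS, 3 of the 200 genes (1.5%) were called between genotypes, against 0.747% of all genes tested: Slc39a8 was higher in Smad4 KO, and Slc13a2 and Slc24a6 were lower. On water the same contrast called none of the 200 (0.00661% of all genes were called), with 46 at an unadjusted p under 0.05 (23%; 20.4% of all genes). DSS against water called none of the 200 in WT (0% of all genes), with 52 at an unadjusted p under 0.05 (26%; 24.2% of all genes), and none in Smad4 KO (0.00661% of all genes), with 19 (9.5%; 6.44% of all genes). The difference between these responses called none either (0.00661% of all genes), with 19 at an unadjusted p under 0.05 (9.5%; 7.5% of all genes). DESeq2, which the study used, called 15 (7.5%; 3.3% of all genes) between genotypes after DSS and 12 (6%; 5.08% of all genes) on water. It called 20 (10%; 11.7% of all genes) for DSS in WT, 5 (2.5%; 0.469% of all genes) for DSS in Smad4 KO and 0 for the difference. The members' share thus lay near or under the background on water and for DSS in WT.

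Many more genes separated the groups without passing the test. After DSS every Smad4 KO library lay above every WT library for 26 of the 200 genes (13%; 10.4% of all genes) and below for 36 (18%; 11.4% of all genes). On water these numbers were 18 above (9%; 5.18% of all genes) and 8 below (4%; 5.2% of all genes), and 22 (11%; 7.26% of all genes) and 11 (5.5%; 7.66% of all genes) without the library labelled Smad4 KO replicate 1. DSS libraries of WT lay wholly above the water libraries for 28 genes (14%; 12.8% of all genes) and wholly below for 15 (7.5%; 11.6% of all genes). In Smad4 KO the DSS libraries lay above for 10 (5%; 4.6% of all genes) and below for 17 (8.5%; 4.28% of all genes). Below, a gene is said to separate 2 groups when their libraries do not overlap. The median log2 fold change of the 200 genes was -0.06 between genotypes after DSS, 0.02 on water, 0.05 for DSS in WT and -0.02 for DSS in Smad4 KO, and that of all genes was between -0.02 and -0.00047.

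**Figure D2:**
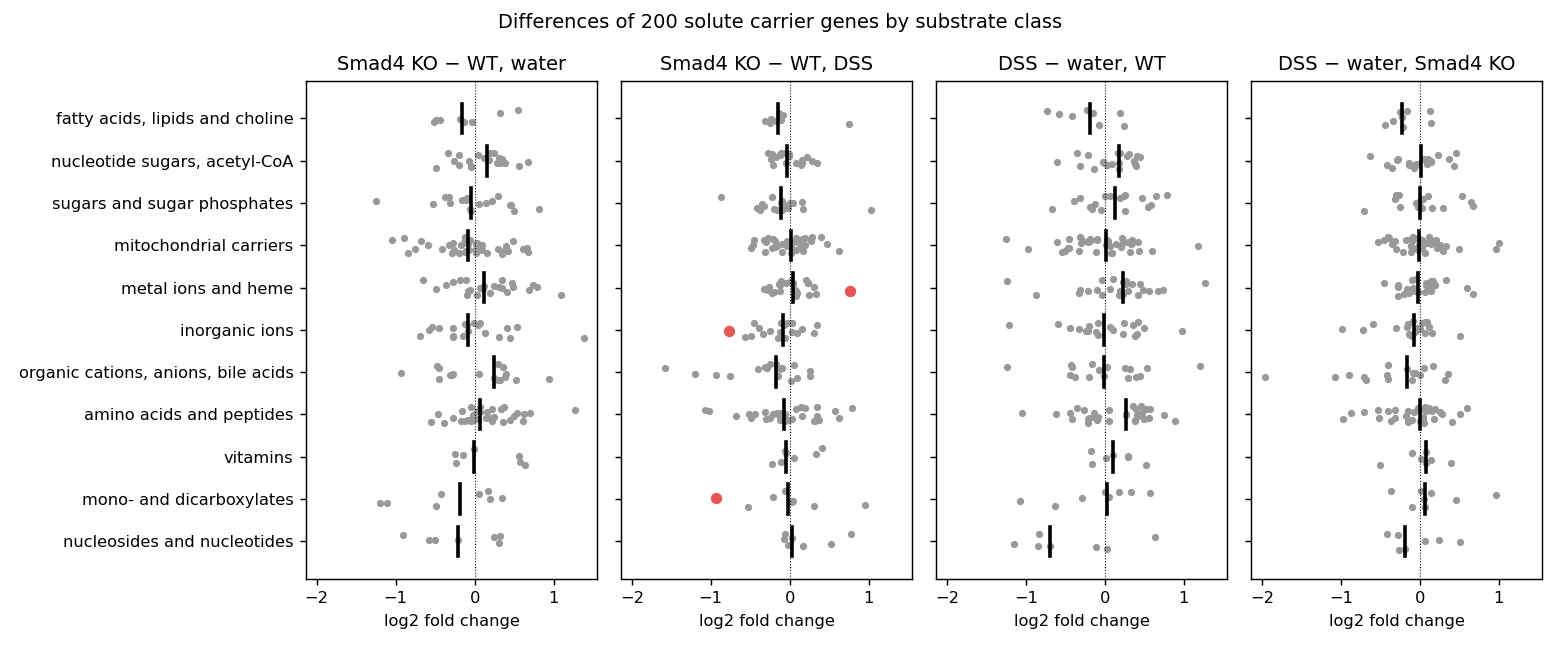
Log2 fold change (x axis) of each of the 200 genes (points) by substrate class (rows) in the 4 comparisons, with class medians as bars and the genes called by edgeR in red. The 3 called genes all stand in the panel of Smad4 KO against WT after DSS, and class medians stay between -0.22 and 0.26 apart from nucleosides and nucleotides for DSS in WT (-0.69).

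The carboxylate transporters held the clearest difference. Slc13a2 (mm9 chr11:78210589-78235719, minus strand) is the sodium-coupled importer of citrate, succinate and other dicarboxylates in apical membranes. Averaged over the 14 libraries it was the most abundant of the 8 (74.0 RPKM), with 119 RPKM in WT on water. It had 219, 306, 262 and 363 CPM in WT on water and 133, 79.1, 119 and 169 CPM in Smad4 KO on water. After DSS Slc13a2 had 193, 195 and 168 CPM in WT and 93.3, 103 and 95.00 CPM in Smad4 KO. Every Smad4 KO library lay below every WT library of the same treatment, including the library labelled Smad4 KO water replicate 1 at 133 CPM. Among the DSS libraries Smad4 KO stood at 0.524 of the WT level (log2 fold change -0.93, SE 0.10, edgeR adjusted p = 0.0043). The call held without each of the 6 libraries in turn and with the letter prefix of the library names as a block (edgeR adjusted p = 0.012). In a model of all 14 libraries the same difference was not called (edgeR adjusted p = 0.38). On water the ratio was 0.435 (log2 fold change -1.20, SE 0.24, edgeR adjusted p = 0.15, DESeq2 adjusted p = 0.00048), called in the model of all 14 libraries (edgeR adjusted p = 0.019). DSS libraries of WT also lay below their water controls (log2 fold change -0.63, SE 0.17, edgeR adjusted p = 0.098, DESeq2 adjusted p = 0.013). Smad4 KO libraries overlapped between water and DSS.

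By mean RPKM over the 14 libraries the next carboxylate carrier was Slc16a1, which moves lactate, butyrate and other monocarboxylates with protons. Slc16a1 had 265, 364, 265 and 276 CPM in WT on water and 307, 285, 316 and 303 CPM in Smad4 KO on water. After DSS it had 271, 327 and 317 CPM in WT and 334, 293 and 313 CPM in Smad4 KO. Its groups overlapped throughout, with log2 fold changes of 0.04 to 0.06 in the 4 comparisons. Slc16a3, the lactate exporter of glycolytic cells, was low on water, with 5.77, 10.2, 8.96 and 3.53 CPM in WT on water and 6.996, 9.12, 8.64 and 7.59 CPM in Smad4 KO on water. After DSS Slc16a3 had 7.72, 6.53 and 10.1 CPM in WT and 14.5, 19.6 and 13.2 CPM in Smad4 KO. The 3 Smad4 KO DSS libraries lay above all 11 others, yet neither difference passed the edgeR threshold (log2 fold change 0.96, SE 0.21, edgeR adjusted p = 0.08 against WT after DSS; log2 fold change 0.96, SE 0.21, edgeR adjusted p = 0.34 against Smad4 KO on water), while DESeq2 called both (adjusted p = 0.0011 and 0.015).

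Slc16a5, another gene of the monocarboxylate family, had 50.03, 53.7, 50.8 and 51.01 CPM in WT on water and 36.9, 33.8, 32.8 and 50.04 CPM in Smad4 KO on water. After DSS Slc16a5 had 49.4, 48.8 and 55.9 CPM in WT and 38.2, 35.01 and 33.95 CPM in Smad4 KO, which separated the genotypes without an edgeR call (log2 fold change -0.53, SE 0.10, edgeR adjusted p = 0.054, DESeq2 adjusted p = 0.0029). Slc16a11 of the same family had 7.88, 8.12, 9.28 and 12.4 CPM in WT on water and 5.76, 2.38, 3.99 and 5.19 CPM in Smad4 KO on water, and 3.72, 5.03 and 4.63 CPM in WT and 4.71, 5.07 and 3.86 CPM in Smad4 KO after DSS. WT on water stood above the 3 other groups, which overlapped (log2 fold change -1.11, SE 0.31, edgeR adjusted p = 0.16, DESeq2 adjusted p = 0.022 for genotype on water; log2 fold change -1.07, SE 0.24, edgeR adjusted p = 0.088, DESeq2 adjusted p = 0.0019 for DSS in WT). The difference of the DSS responses was 1.14 (SE 0.41, edgeR adjusted p = 0.64). Slc16a11 lies 372 bases from Slc16a13 on chromosome 11, on the opposite strand, and whether counting used strand is not given in the sources used here.

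**Figure D3:**
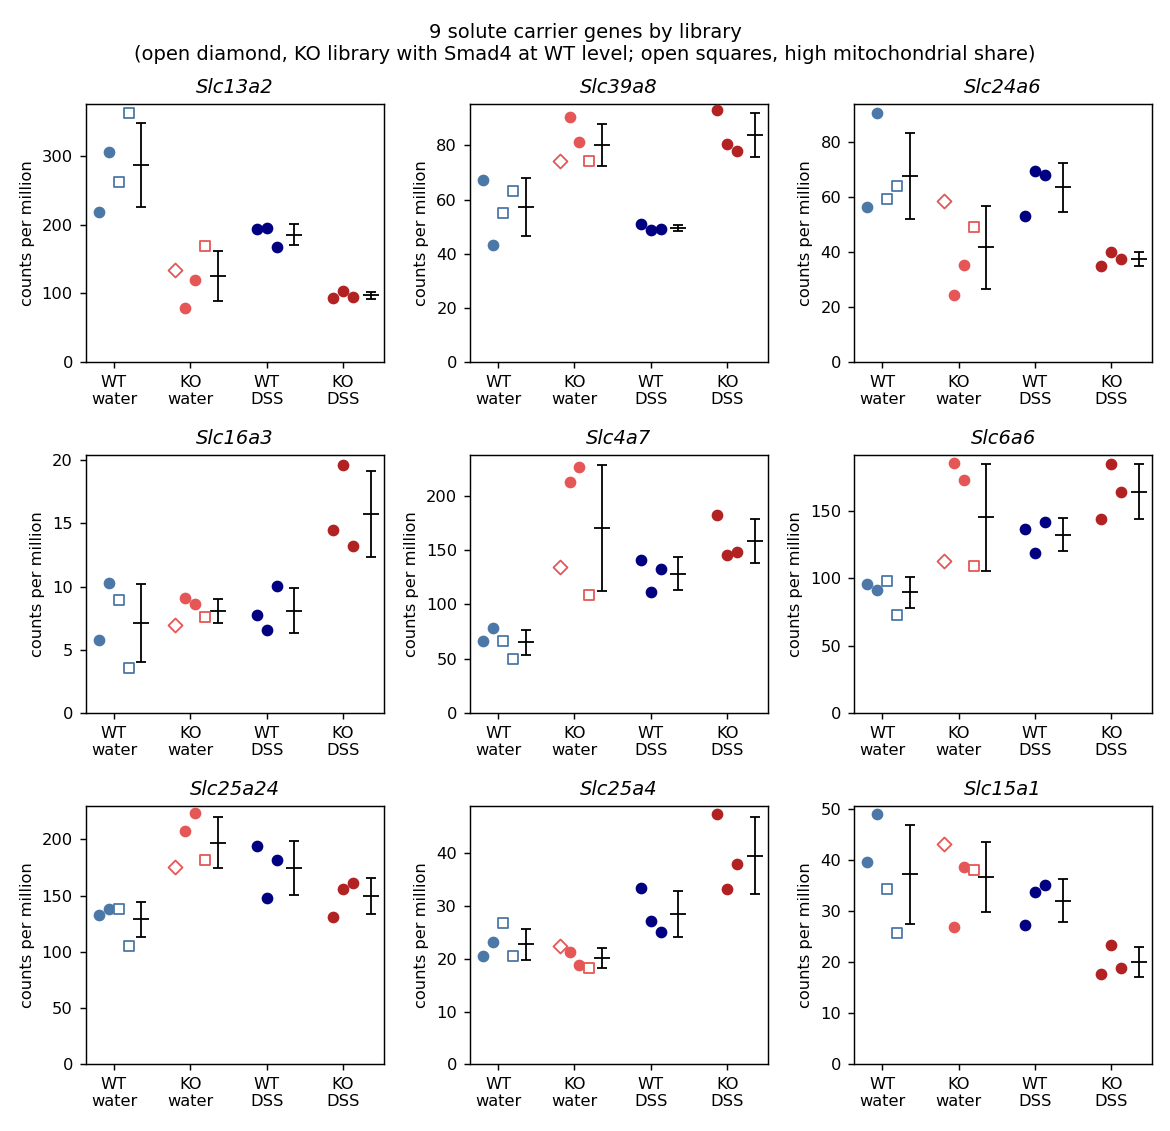
CPM (y axis, from 0) of 9 genes in each library by group (x axis), with mean ± SD as black bars; the open diamond is the library labelled Smad4 KO with Smad4 at the WT level and open squares are libraries with a high mitochondrial share. Slc13a2 and Slc24a6 are lower and Slc39a8 higher in all 3 Smad4 KO libraries after DSS, and Slc16a3 is highest and Slc15a1 lowest in Smad4 KO after DSS.

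The upstream sequences of the called genes are given because Smad4, the deleted protein, binds DNA. RefSeq (GRCm38.p6) start sites were matched by symbol for 157 of the 200 genes, among them Slc13a2 and Slc39a8 but not Slc24a6. The runs below are the 250 bases before each start, 5′ to 3′ on the gene's strand, and capitals mark the Smad box, CAGAC or its reverse complement GTCTG.
Slc13a2, chr11:78422235-78422484, minus strand: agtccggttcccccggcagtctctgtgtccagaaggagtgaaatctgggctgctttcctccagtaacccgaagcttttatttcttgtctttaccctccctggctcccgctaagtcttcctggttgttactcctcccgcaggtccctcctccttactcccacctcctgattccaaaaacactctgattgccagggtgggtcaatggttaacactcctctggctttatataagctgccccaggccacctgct
Slc39a8, chr3:135825029-135825278, plus strand: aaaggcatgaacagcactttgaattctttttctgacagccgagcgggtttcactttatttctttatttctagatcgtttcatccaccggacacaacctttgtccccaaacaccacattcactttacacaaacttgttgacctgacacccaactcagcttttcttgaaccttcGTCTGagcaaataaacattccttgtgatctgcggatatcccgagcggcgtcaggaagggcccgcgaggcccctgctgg
Slc39a8, further start, chr3:135825407-135825656, plus strand: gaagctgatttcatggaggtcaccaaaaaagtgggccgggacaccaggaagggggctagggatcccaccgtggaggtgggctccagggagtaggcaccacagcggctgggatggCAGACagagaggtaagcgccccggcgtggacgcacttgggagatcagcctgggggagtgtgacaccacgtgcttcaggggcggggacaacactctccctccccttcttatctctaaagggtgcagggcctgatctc
Both Slc39a8 windows hold 1 Smad box and the Slc13a2 window holds none. The box is common: 42.2% of the 32851 RefSeq windows of this length hold it on either strand, and 99 (47.8%) of the 207 windows of the solute carrier genes. The palindrome GTCTAGAC is in 0.167% of all windows and the GC-rich box GGCGCC in 9.59%, and neither is in these 3 windows. A match describes the letters and is not a binding site.

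Among the 25 metal ion and heme transporters, Slc39a8 was the gene called after DSS. It encodes an importer of zinc and manganese and lies at mm9 chr3:135488243-135551536, plus strand. Slc39a8 had 67.4, 43.3, 55.1 and 63.3 CPM in WT on water and 74.1, 90.5, 81.2 and 74.2 CPM in Smad4 KO on water. After DSS Slc39a8 had 50.8, 48.7 and 48.9 CPM in WT and 92.9, 80.4 and 77.9 CPM in Smad4 KO. In both treatments every Smad4 KO library lay above every WT library, and the library labelled Smad4 KO water replicate 1 was the lowest of its group at 74.1 CPM. The difference between genotypes after DSS was 1.69-fold, with Smad4 KO higher (log2 fold change 0.76, SE 0.10, edgeR adjusted p = 0.01). It was not called without WT DSS replicate 3 (edgeR adjusted p = 0.052), the WT DSS library whose name carries another letter prefix than the other 5, nor with that prefix as a block (edgeR adjusted p = 0.053), nor in the model of all 14 libraries (edgeR adjusted p = 0.21). On water the difference was smaller (log2 fold change 0.48, SE 0.17, edgeR adjusted p = 0.17, DESeq2 adjusted p = 0.085), and the model of all 14 libraries called it (edgeR adjusted p = 0.043). Water and DSS libraries overlapped within each genotype.

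After DSS 6 of the 25 metal ion and heme transporters separated the genotypes upwards (24%, against 10.4% of all genes) and 5 downwards (20%, against 11.4%). On water 5 did so upwards (20%, against 5.18% of all genes) and 1 downwards (4%, against 5.2%). Some zinc transporters of the secretory pathway were among those that separated upwards without a call. Slc30a7, which moves zinc into early secretory compartments, had 76.8, 69.8, 79.5 and 61.8 CPM in WT on water and 98.1, 88.9, 125 and 86.7 CPM in Smad4 KO on water, and 90.3, 88.4 and 86.99 CPM in WT and 123, 105 and 107 CPM in Smad4 KO after DSS (log2 fold change 0.47, SE 0.16, edgeR adjusted p = 0.17 on water; log2 fold change 0.33, SE 0.09, edgeR adjusted p = 0.15 after DSS). Slc30a5, its relative with the same role, had log2 fold changes of 0.35 (SE 0.15) on water and 0.20 (SE 0.09) after DSS. Slc30a6, the partner of Slc30a5, overlapped between genotypes in both treatments, with log2 fold changes of -0.06 (SE 0.19) and 0.01 (SE 0.11). Slc30a5, Slc30a6 and Slc30a7 were singled out after their values were seen. Slc30a4, a vesicular zinc transporter, had 58.5, 49.2, 48.9 and 40.5 CPM in WT on water and 70.1, 96.9, 96.8 and 66.1 CPM in Smad4 KO on water. The genotypes separated on water (log2 fold change 0.74, SE 0.18, edgeR adjusted p = 0.16, DESeq2 adjusted p = 0.017) and overlapped after DSS, where Slc30a4 had 59.7, 52.6 and 61.5 CPM in WT and 77.04, 61.4 and 65.6 CPM in Smad4 KO.

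Slc39a4, the apical zinc importer whose loss causes zinc deficiency, was the most abundant of the class at 84.3 RPKM. It had 179.7, 232, 157 and 130.04 CPM in WT on water and 226, 109.7, 201 and 195 CPM in Smad4 KO on water, and 235, 200.1 and 195 CPM in WT and 204, 221 and 185 CPM in Smad4 KO after DSS, so that all groups overlapped. Slc39a1, a plasma membrane zinc importer and the next in level (48.5 RPKM), separated the genotypes after DSS by a small difference (log2 fold change 0.08, SE 0.08, edgeR adjusted p = 0.69). Slc30a1, the basolateral zinc exporter, had 43.3, 42.9 and 50.7 CPM in WT and 37.8, 39.2 and 39.8 CPM in Smad4 KO after DSS, separated but with a log2 fold change of only -0.23 (SE 0.10, edgeR adjusted p = 0.32). Slc39a14, an importer of zinc, iron and manganese, overlapped in every comparison, with 39.9, 37.2 and 32.8 CPM in WT and 28.7, 41.4 and 30.9 CPM in Smad4 KO after DSS. Slc30a10, a manganese exporter, had 22.5, 17.6, 41.9 and 36.4 CPM in WT on water and 11.2, 15.7 and 10.6 CPM in WT after DSS. That separation was not an edgeR call (log2 fold change -1.24, SE 0.30, edgeR adjusted p = 0.09, DESeq2 adjusted p = 0.0032), and Smad4 KO after DSS spread from 4.97 to 33.2 CPM.

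Of the 20 carriers of inorganic ions, Slc24a6 was called after DSS. Under its present name Slc8b1 it is the sodium-calcium exchanger of the mitochondrial inner membrane, at mm9 chr5:120961177-120984033, plus strand. Slc24a6 had 56.5, 90.6, 59.3 and 64.1 CPM in WT on water and 58.5, 24.3, 35.3 and 49.02 CPM in Smad4 KO on water. After DSS Slc24a6 had 53.1, 69.4 and 68.04 CPM in WT and 34.8, 39.9 and 37.3 CPM in Smad4 KO. The DSS groups did not overlap, and Smad4 KO stood at 0.588 of WT there (log2 fold change -0.77, SE 0.12, edgeR adjusted p = 0.029). The call was lost when any of 5 of the 6 DSS libraries was left out (edgeR adjusted p = 0.074 to 0.13), and held without WT DSS replicate 1. It was lost too with the name prefix as a block (edgeR adjusted p = 0.089) and in the models of all 14 libraries and of 13 (edgeR adjusted p = 0.74 and 0.57). On water the library labelled Smad4 KO replicate 1, at 58.5 CPM, lay within the WT range, and the other 3 below it. Over all 4 the log2 fold change on water was -0.69 (SE 0.26, edgeR adjusted p = 0.18). The model of 13 libraries, which leaves out that library but holds the DSS groups too, called this water difference (edgeR adjusted p = 0.031). When that library was left out of the fit of the water libraries alone, edgeR called no solute carrier gene, and so not Slc24a6.

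Slc4a7, an electroneutral importer of sodium and bicarbonate, showed the largest water difference of the 200 genes. It had 66.3, 78.2, 66.5 and 50.05 CPM in WT on water and 134, 213, 227 and 109 CPM in Smad4 KO on water. After DSS Slc4a7 had 141, 111 and 133 CPM in WT and 182, 146 and 148 CPM in Smad4 KO. WT on water, at 50.05 to 78.2 CPM, lay below all other groups. The log2 fold change was 1.38 between genotypes on water (SE 0.24, edgeR adjusted p = 0.15, DESeq2 adjusted p = 0.00012) and 0.97 for DSS in WT (SE 0.16, edgeR adjusted p = 0.06, DESeq2 adjusted p = 2.3e-05). These comparisons share the WT water libraries. After DSS the genotypes still separated, by 0.31 (SE 0.12, edgeR adjusted p = 0.29), and the difference of the DSS responses was -1.08 (SE 0.32, edgeR adjusted p = 0.64).

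Slc26a2, a sulfate importer, was the most abundant inorganic ion carrier at 51.3 RPKM, with 459, 442, 449.6 and 215 CPM in WT on water and 428, 619, 554 and 332 CPM in Smad4 KO on water, and 321, 501 and 575 CPM in WT and 385, 447 and 344 CPM in Smad4 KO after DSS. The groups overlapped, and WT water replicate 4, with a high mitochondrial share, was low at 215 CPM. Slc9a2, a sodium-proton exchanger, had 179, 119 and 160.3 CPM in WT and 107, 115 and 103 CPM in Smad4 KO after DSS. It separated the genotypes there (log2 fold change -0.50, SE 0.14, edgeR adjusted p = 0.16, DESeq2 adjusted p = 0.033) and overlapped on water. Slc20a1, a sodium-phosphate importer, had 149.9, 193, 121 and 182 CPM in Smad4 KO on water and 79.7, 107 and 106 CPM after DSS (log2 fold change -0.72, SE 0.20, edgeR adjusted p = 0.59). Slc12a7, a potassium-chloride cotransporter, stayed between 109 and 149.7 CPM in all 14 libraries.

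None of the 33 amino acid and peptide transporters was called by edgeR. The class also holds Slc6a8, a creatine transporter, and Slc6a4, a serotonin transporter. Slc6a6, the taurine transporter, had 95.8, 91.05, 98.1 and 73.04 CPM in WT on water and 113, 186, 173 and 109 CPM in Smad4 KO on water. After DSS Slc6a6 had 136, 119 and 142 CPM in WT and 144, 185 and 164 CPM in Smad4 KO. WT on water was again the lowest group and overlapped with none (log2 fold change 0.56, SE 0.13, edgeR adjusted p = 0.088, DESeq2 adjusted p = 0.0062 for DSS in WT; log2 fold change 0.70, SE 0.20, edgeR adjusted p = 0.16, DESeq2 adjusted p = 0.039 between genotypes on water). The glutamine transporter Slc1a5 (66.5 RPKM) had 298, 254, 376 and 471 CPM in WT on water and 225, 194, 195 and 342 CPM in Smad4 KO on water, with log2 fold changes of -0.55 (SE 0.24) there and -0.06 (SE 0.10) after DSS. Slc6a14, a concentrative importer of neutral and cationic amino acids, had 418, 742, 522 and 370.01 CPM in WT on water and 757, 490.4, 760.1 and 433 CPM in Smad4 KO on water, and 755, 658 and 704 CPM in WT and 719.8, 537 and 570.1 CPM in Smad4 KO after DSS. Its genotypes overlapped in both treatments.

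Slc15a1, the proton-coupled importer of small peptides, had 39.7, 48.96, 34.4 and 25.8 CPM in WT on water and 43.2, 26.9, 38.6 and 38.01 CPM in Smad4 KO on water. After DSS Slc15a1 had 27.3, 33.8 and 35.2 CPM in WT and 17.8, 23.4 and 18.9 CPM in Smad4 KO. Smad4 KO after DSS was below every other library, with no edgeR call (log2 fold change -0.68, SE 0.14, edgeR adjusted p = 0.077, DESeq2 adjusted p = 0.0026 against WT after DSS; log2 fold change -0.87, SE 0.20, edgeR adjusted p = 0.38, DESeq2 adjusted p = 0.019 against Smad4 KO on water). After DSS 7 of the 33 genes separated the genotypes downwards (21.2%; 11.4% of all genes) and 3 upwards (9.09%; 10.4% of all genes), and on water 4 did so upwards (12.1%; 5.18% of all genes) and 0 downwards (5.2% of all genes). The creatine transporter Slc6a8 is 1 of the 7. Among those separated on water was Slc7a11, the cystine-glutamate exchanger, with 2.15, 2.62, 2.36 and 2.35 CPM in WT on water and 3.92, 5.30, 8.39 and 5.35 CPM in Smad4 KO on water (log2 fold change 1.28, SE 0.33, edgeR adjusted p = 0.16, DESeq2 adjusted p = 0.015).

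The large neutral amino acid transporter Slc7a5 had 18.3, 10.3, 13.5 and 15.5 CPM in WT on water and 16.3, 16.7, 27.7 and 22.8 CPM in Smad4 KO on water, and 18.2, 16.4 and 20.7 CPM in WT and 18.8, 27.5 and 25.02 CPM in Smad4 KO after DSS, and its groups overlapped (log2 fold change 0.54, SE 0.24, edgeR adjusted p = 0.24 on water). Slc3a2, the heavy chain that Slc7a5 and Slc7a11 pair with, stood at 52.9, 50.2 and 55.7 CPM in WT and 47.8, 48.5 and 55.8 CPM in Smad4 KO after DSS (log2 fold change -0.06, SE 0.10). Slc36a1, a proton-coupled amino acid transporter of lysosomes, was among the 3 genes with the smallest p upwards for DSS in Smad4 KO, with 125, 95.9, 156 and 109 CPM on water and 151, 190.2 and 177 CPM after DSS. Its groups overlapped (log2 fold change 0.50, SE 0.18, edgeR adjusted p = 0.74).

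Among the 37 mitochondrial carriers, again with 0 edgeR calls, the most abundant was Slc25a5, an exchanger of ADP and ATP. It had 1221, 1600.2, 835 and 623 CPM in WT on water and 1302, 1154, 964 and 892 CPM in Smad4 KO on water, and 1404, 1316 and 1338 CPM in WT and 1741, 1374 and 1462 CPM in Smad4 KO after DSS. Smad4 KO after DSS lay above Smad4 KO on water (log2 fold change 0.50, SE 0.18, edgeR adjusted p = 0.74). Slc25a4, its paralogue of heart and muscle, stood at 11.4 RPKM and had 20.4, 23.2, 26.7 and 20.4 CPM in WT on water and 22.3, 21.2, 18.9 and 18.3 CPM in Smad4 KO on water. After DSS Slc25a4 had 33.3, 27.1 and 25.1 CPM in WT and 47.4, 33.2 and 37.96 CPM in Smad4 KO. It was the solute carrier gene with the smallest p for DSS in Smad4 KO (log2 fold change 0.97, SE 0.17, edgeR adjusted p = 0.21, DESeq2 adjusted p = 0.00058) and was called there in the model of all 14 libraries. Slc25a3, the phosphate carrier, had 902, 928 and 879 CPM in WT and 691, 769 and 776 CPM in Smad4 KO after DSS (log2 fold change -0.28, SE 0.10, edgeR adjusted p = 0.24). Reads of such close paralogues can be assigned to either.

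Slc25a24, a calcium-regulated carrier of ATP-magnesium and phosphate, had 133, 138, 138 and 106 CPM in WT on water and 175, 207, 223 and 182 CPM in Smad4 KO on water. After DSS Slc25a24 had 194, 147 and 181 CPM in WT and 131, 156 and 161 CPM in Smad4 KO. Every WT DSS library lay above WT on water (log2 fold change 0.44, SE 0.14, edgeR adjusted p = 0.12), and every Smad4 KO DSS library lay below Smad4 KO on water (log2 fold change -0.40, SE 0.16, edgeR adjusted p = 0.76). The difference of the responses was -0.84 (SE 0.21, edgeR adjusted p = 0.64, DESeq2 adjusted p = 0.13), so that it was not called. Slc25a40, a carrier of the glutathione-importing pair with Slc25a39, separated the groups in the same crossed way, with 13.03, 13.6, 11.2 and 14.4 CPM in WT on water and 16.3, 16.9, 18.7 and 16.9 CPM in Smad4 KO on water, and 17.7, 15.3 and 16.5 CPM in WT and 11.1, 14.9 and 13.5 CPM in Smad4 KO after DSS (difference of the responses -0.73, SE 0.22, edgeR adjusted p = 0.64). They were the 2 of the 200 genes (1%) that separated in opposite directions, against 36 (0.238%) of all genes tested.

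Slc25a34, an orphan carrier, had 25.9, 30.96, 17.3 and 29.9 CPM in WT on water and 11.8, 11.4, 11.5 and 15.8 CPM in Smad4 KO on water (log2 fold change -1.04, SE 0.22, edgeR adjusted p = 0.15, DESeq2 adjusted p = 0.0033). Every Smad4 KO library on water lay below every WT library, and the genotypes overlapped after DSS. Slc25a10, the dicarboxylate carrier of the inner membrane, had 204, 179, 228 and 351 CPM in WT on water and 141, 88.2, 133 and 172 CPM in Smad4 KO on water, and 171, 174 and 179.96 CPM in WT and 148, 147 and 165 CPM in Smad4 KO after DSS. It separated the genotypes downwards in both treatments (log2 fold change -0.85, SE 0.25, edgeR adjusted p = 0.16 on water; log2 fold change -0.19, SE 0.09, edgeR adjusted p = 0.36 after DSS), as Slc13a2, the plasma membrane importer of dicarboxylates, did.

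The 18 transporters of sugars and sugar phosphates gave 0 edgeR calls. Slc37a2, a sugar-phosphate exchanger of the endoplasmic reticulum, had 138, 169, 92.3 and 158 CPM in WT on water and 114, 105, 128 and 174 CPM in Smad4 KO on water. After DSS Slc37a2 had 181, 119.8 and 137 CPM in WT and 67.5, 73.02 and 99.2 CPM in Smad4 KO. Its Smad4 KO DSS libraries lay below those of WT after DSS and of Smad4 KO on water (log2 fold change -0.87, SE 0.18, edgeR adjusted p = 0.069, DESeq2 adjusted p = 0.00013 against WT after DSS). Slc2a1, the facilitative glucose transporter of basal membranes, had 109, 135, 103 and 88.2 CPM in WT on water and 113, 65.7, 126 and 114 CPM in Smad4 KO on water, and 124, 124 and 138 CPM in WT and 91.7, 115 and 103 CPM in Smad4 KO after DSS, separated by a log2 fold change of -0.32 (SE 0.11, edgeR adjusted p = 0.21). Slc5a1, the sodium-glucose importer, had 199, 187 and 217 CPM in WT and 213, 188 and 195 CPM in Smad4 KO after DSS and overlapped in each comparison. The class was led in level by Slc50a1, a sugar uniporter (63.5 RPKM), with 96.1, 75.2, 121 and 209.8 CPM in WT on water and 78.4, 74.1, 71.5 and 123 CPM in Smad4 KO on water, and by Slc37a1, a sugar-phosphate exchanger (60.2 RPKM), with 251, 244, 208 and 282 CPM in WT on water and 195, 156, 195 and 242 CPM in Smad4 KO on water. In Slc50a1 the libraries with high mitochondrial shares were the 2 highest of WT and the highest of Smad4 KO on water, a relation whose part was not tested.

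The 20 carriers of nucleotide sugars and acetyl-CoA, which serve glycan synthesis in the Golgi and endoplasmic reticulum, likewise had 0 edgeR calls. Slc35c1 had 346, 323, 252 and 260.1 CPM in WT on water and 318, 289.7, 310.1 and 299 CPM in Smad4 KO on water, and 397, 403 and 366 CPM in WT and 349, 369.7 and 354 CPM in Smad4 KO after DSS. DSS libraries lay above water libraries in both genotypes (log2 fold change 0.40, SE 0.15, edgeR adjusted p = 0.15 in WT; log2 fold change 0.23, SE 0.14, edgeR adjusted p = 0.81 in Smad4 KO). Slc35a1 had 188, 161, 177 and 242 CPM in WT on water and 212, 266, 246 and 274 CPM in Smad4 KO on water, and 159.9, 176 and 187 CPM in WT and 168, 197 and 219 CPM in Smad4 KO after DSS, with overlap between genotypes. Slc35a3, a carrier of UDP-N-acetylglucosamine singled out after its values were seen, had 289, 314, 309 and 185 CPM in WT on water and 429, 478, 512 and 336 CPM in Smad4 KO on water, and 364, 330.1 and 383 CPM in WT and 406, 399 and 389 CPM in Smad4 KO after DSS. It separated the genotypes upwards in both treatments (log2 fold change 0.68, SE 0.21, edgeR adjusted p = 0.16, DESeq2 adjusted p = 0.039 on water; log2 fold change 0.15, SE 0.10, edgeR adjusted p = 0.51 after DSS). After DSS the class separated upwards for 5 genes (25%; 10.4% of all genes) and downwards for 3 (15%; 11.4% of all genes).

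Transporters of organic cations, organic anions and bile acids, 17 genes with 0 edgeR calls, separated the genotypes after DSS downwards for 6 (35.3%; 11.4% of all genes) and upwards for 1 (5.88%; 10.4% of all genes), and on water for none (5.18% and 5.2% of all genes). Slc17a4, an organic anion and phosphate transporter of the intestine, had 44.6, 34.9, 59.3 and 60.4 CPM in WT on water and 34.1, 40.2, 40.5 and 47.6 CPM in Smad4 KO on water. After DSS Slc17a4 had 46.01, 31.7 and 32.9 CPM in WT and 22.7, 18.96 and 23.9 CPM in Smad4 KO, and Smad4 KO after DSS lay below every other library (log2 fold change -0.89, SE 0.17, edgeR adjusted p = 0.29, DESeq2 adjusted p = 0.003 against Smad4 KO on water; log2 fold change -0.75, SE 0.16, edgeR adjusted p = 0.079, DESeq2 adjusted p = 0.0016 against WT after DSS). Its neighbour Slc17a1, 2008 bases away on chromosome 13 on the opposite strand, was low, with 3.96, 3.41, 6.60 and 11.01 CPM in WT on water and 3.70, 4.35, 2.92 and 6.74 CPM in Smad4 KO on water, and 3.63, 1.92 and 2.23 CPM in WT and 1.73, 0.542 and 1.12 CPM in Smad4 KO after DSS (log2 fold change -1.97, SE 0.47, edgeR adjusted p = 0.41 for DSS in Smad4 KO). Slc10a2, the apical sodium-bile acid importer, had 5.88, 3.73, 5.78 and 5.24 CPM in WT on water and 4.22, 3.10, 5.51 and 4.12 CPM in Smad4 KO on water, and 5.75, 2.56 and 3.28 CPM in WT and 1.73, 2.02 and 2.28 CPM in Smad4 KO after DSS (log2 fold change -0.94, SE 0.33, edgeR adjusted p = 0.23). Both of these genes had under 50 reads in some libraries.

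Slc10a5, an orphan of the bile acid transporter family, had 13.8, 18.8, 12.8 and 6.10 CPM in WT on water and 31.6, 29.1, 31.9 and 7.16 CPM in Smad4 KO on water. After DSS Slc10a5 had 33.4, 27.8 and 28.8 CPM in WT and 31.3, 33.4 and 28.4 CPM in Smad4 KO. It separated WT after DSS from WT on water (log2 fold change 1.20, SE 0.29, edgeR adjusted p = 0.088, DESeq2 adjusted p = 0.0038), while the genotypes overlapped. The libraries of high mitochondrial share were then set aside, a choice made after the values were seen. The remaining WT water libraries stood at 13.8 and 18.8 CPM and those of Smad4 KO at 29.1 to 31.9 CPM, without overlap. The latter include the library labelled Smad4 KO water replicate 1, at 31.6 CPM, whose Smad4 was within the WT range. After DSS the log2 fold change between genotypes was 0.05 (SE 0.11). Slc22a18 (66.5 RPKM) led the class in level, with a log2 fold change between genotypes of -0.12 (SE 0.10) after DSS. Slc22a5, the carnitine importer, had 33.3, 28.8 and 32.00 CPM in WT and 31.3, 26.6 and 27.05 CPM in Smad4 KO after DSS, with overlap.

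In lipid and choline transport, Slc27a2, a fatty acid transport protein with acyl-CoA synthetase activity, had 16.8, 16.99, 16.9 and 12.5 CPM in WT on water and 19.9, 28.4, 22.95 and 21.2 CPM in Smad4 KO on water. After DSS Slc27a2 had 15.1, 11.8 and 18.3 CPM in WT and 30.9, 25.6 and 19.9 CPM in Smad4 KO. Smad4 KO lay above WT in both treatments without an edgeR call (log2 fold change 0.75, SE 0.19, edgeR adjusted p = 0.13, DESeq2 adjusted p = 0.0095 after DSS). Its relative Slc27a4, the more abundant fatty acid transport protein here (15.5 against 5.28 RPKM), lay the other way after DSS, with 60.9, 65.2 and 71.7 CPM in WT and 48.7, 56.6 and 53.6 CPM in Smad4 KO (log2 fold change -0.32, SE 0.10, edgeR adjusted p = 0.2). The choline transporter-like genes Slc44a4 and Slc44a1 (48.7 RPKM) overlapped between genotypes. Slc44a4 had 504, 678, 429.9 and 427 CPM in WT on water and 460.3, 402, 571 and 549.8 CPM in Smad4 KO on water, and 614, 561 and 577 CPM in WT and 569, 558 and 499.6 CPM in Smad4 KO after DSS. Slc44a1 had log2 fold changes of 0.32 (SE 0.19) on water and -0.08 (SE 0.09) after DSS.

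Nucleoside and nucleotide transporters had the lowest class median for DSS in WT (-0.69), with 5 of the 7 genes under 0. Their summed CPM, with Slc17a9 the most abundant, was 194 and 177 in WT water replicates 1 and 2. It was 250 and 315 in WT water replicates 3 and 4, of high mitochondrial share, and 180, 177 and 165 in WT after DSS. The part of the mitochondrial share in this class median was not tested. Slc29a1, the equilibrative nucleoside transporter, had 29.7, 27.01, 33.95 and 43.95 CPM in WT on water and 23.7, 16.8, 24.9 and 24.4 CPM in Smad4 KO on water. After DSS Slc29a1 had 18.6, 15.99 and 21.9 CPM in WT and 18.4, 17.2 and 20.1 CPM in Smad4 KO. WT on water lay above the 3 other groups (log2 fold change -0.83, SE 0.19, edgeR adjusted p = 0.088, DESeq2 adjusted p = 0.0043). Slc17a9, the vesicular nucleotide transporter (33.2 RPKM), had 109.8, 80.1, 160.2 and 219 CPM in WT on water and 71.8, 74.6, 81.04 and 175 CPM in Smad4 KO on water, and the libraries with high mitochondrial shares were again the highest of each group. Slc28a2, the concentrative purine nucleoside importer, had 7.31, 3.98 and 5.14 CPM in WT and 7.32, 10.7 and 10.1 CPM in Smad4 KO after DSS, a separation without a call (log2 fold change 0.78, SE 0.25, edgeR adjusted p = 0.2, DESeq2 adjusted p = 0.059). Among the 7 vitamin transporters Slc46a1, the proton-coupled folate importer (8.66 RPKM), had 13.4, 17.2, 14.8 and 11.98 CPM in WT on water and 19.6, 12.5, 22.99 and 29.9 CPM in Smad4 KO on water, and 15.6, 19.6 and 17.6 CPM in WT and 13.7, 15.5 and 15.8 CPM in Smad4 KO after DSS, with overlap on water (log2 fold change 0.56, SE 0.26, edgeR adjusted p = 0.24). Slc5a6, which takes up biotin and pantothenate, overlapped between genotypes in both treatments (log2 fold change 0.05 after DSS, SE 0.13).

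The genotype comparisons on water and after DSS share no library and can be set side by side. Over the 200 genes their log2 fold changes had a Pearson correlation of 0.42 and a Spearman correlation of 0.40, against 0.34 and 0.34 over all genes tested, and 129 genes (64.5%; 63.6% of all genes) had the same sign. Smad4 KO lay above WT in both treatments for 8 genes, which are 44.4% of those above on water and 30.8% of those above after DSS: Slc25a32, Slc27a2, Slc30a5, Slc30a7, Slc35a3, Slc39a8, Slc4a7 and Slc6a6. It lay below in both for Slc13a2, Slc25a10 and Slc48a1 (37.5% and 8.33%), and, when the library labelled Smad4 KO water replicate 1 was left out, Slc33a1 joined those above and Slc16a9 and Slc24a6 those below. Over all genes tested the same shares were 29.7% and 14.9% above and 26.2% and 12% below.

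**Figure D4:**
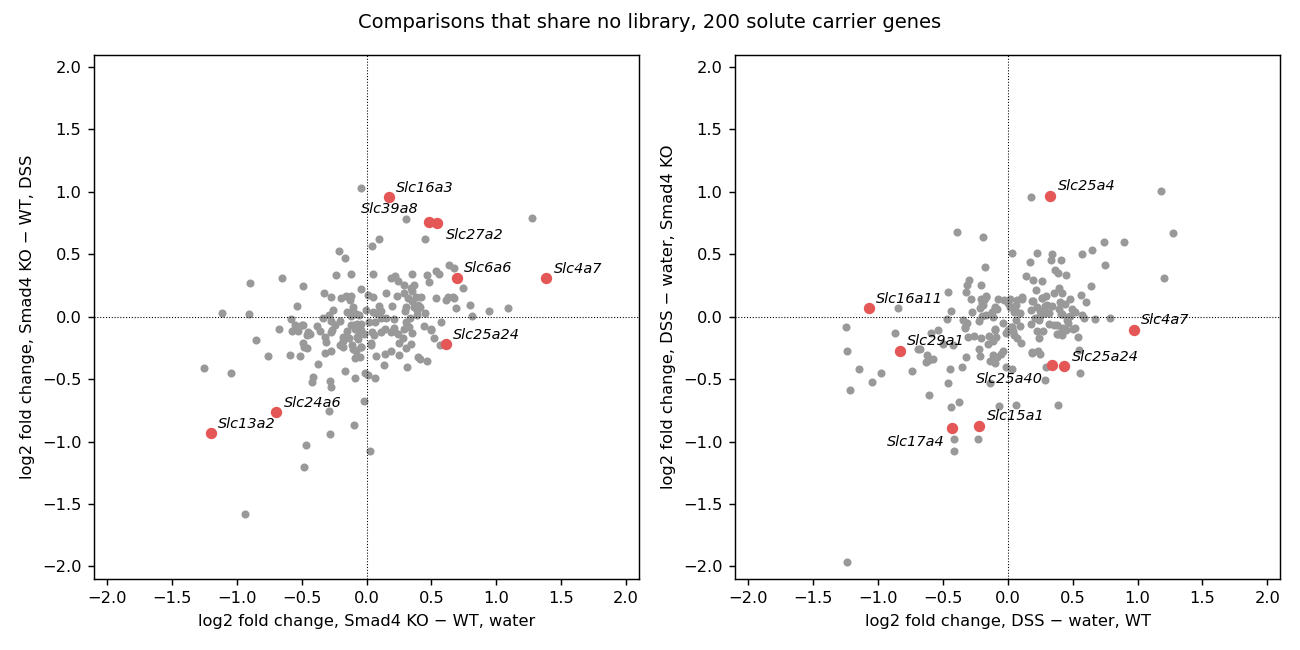
Log2 fold changes of the 200 genes between genotypes on water and after DSS (left) and for DSS in WT and in Smad4 KO (right), with a few described genes in red; the 2 axes of each panel share no library. Slc13a2 and Slc24a6 lie low and Slc39a8 and Slc27a2 high on both axes at left, and Slc25a24 and Slc25a40 lie on opposite sides of 0 at right.

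The responses to DSS in WT and in Smad4 KO, which share no library either, had a Pearson correlation of 0.47 and a Spearman correlation of 0.40 over the 200 genes (0.36 and 0.32 over all genes). Slc35c1 and Slc39a11 lay above their water controls in both genotypes and Slc27a1 below, which is 7.14% and 20% of the genes above and 6.67% and 5.88% of those below in WT and in Smad4 KO. Over all genes these shares were 7.21% and 20.1% above and 7.65% and 20.7% below. Genes within the same tissue and library are not independent, and these correlations are descriptions.

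Some other markers moved with genotype after DSS. Surface colonocyte markers (Krt20, Car4, Aqp8, Ceacam1, Guca2a and Fabp2) summed to 4357 to 4843 CPM in WT and 3423 to 4069 CPM in Smad4 KO, with 3 of 6 called lower. Ceacam1, Guca2a and Fabp2 overlapped between genotypes. Goblet markers (Muc2, Tff3, Fcgbp, Clca1, Zg16 and Agr2) summed to 14079 to 15599 CPM in WT and 11547 to 12022 CPM in Smad4 KO, with 2 of 6 called lower. Fcgbp, Zg16 and Tff3 were lower in every Smad4 KO library. Muc2, the largest part of the goblet sum, overlapped, with 10035, 7561 and 8245 CPM in WT and 7062, 8187 and 7813 CPM in Smad4 KO. Clca1 overlapped too. Agr2 leaned the other way, with 1332, 1535 and 1363 CPM in WT and 2263, 1464 and 1687 CPM in Smad4 KO. Of the crypt stem and proliferation markers (Lgr5, Ascl2, Smoc2, Mki67, Top2a and Pcna), 1 of 6 was called higher after DSS, and Smoc2 had 29.4, 19.5 and 32.4 CPM in WT and 80.7, 73.2 and 81.2 CPM in Smad4 KO. Lgr5 also lay higher in every Smad4 KO library. Ascl2 went the other way, with 5.93, 4.25 and 6.86 CPM in WT and 3.45, 2.51 and 3.70 CPM in Smad4 KO. Mki67, Top2a and Pcna overlapped, and the median log2 fold change of the list was 0.05. On water the median log2 fold change between genotypes was 0.47 for the crypt and -0.50 for the surface markers, with 0 called in either list. Ascl2 again differed from the crypt median there, with 20.7, 16.9, 16.0 and 14.2 CPM in WT and 14.7, 4.71, 2.22 and 5.67 CPM in Smad4 KO. In bulk RNA fewer cells of a type and less RNA per cell cannot be told apart. The part of these markers, and of the fibroblast markers, in the transporter differences was not tested. Of 19 partners of transport that are no solute carrier of the 200, 2 were called after DSS, both lower in Smad4 KO: Slco2b1, an organic anion transporter, with 13.3, 9.14 and 8.84 CPM in WT and 3.45, 3.30 and 3.15 CPM in Smad4 KO (log2 fold change -1.66, SE 0.21, edgeR adjusted p = 0.010), and Rhbg, an ammonium transporter (-1.01, SE 0.16, edgeR adjusted p = 0.026). Atp1b1 and Atp1b3, beta subunits of the sodium pump, had log2 fold changes of -0.19 and -0.01 there, with no call in any comparison.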

How the data were processed

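The authors mapped paired-end reads with HISAT2 on mm9, assigned them to genes with featureCounts and deposited the raw counts without normalization. The annotation release and the strand setting are not given in the sources used here, so overlapping and antisense genes could not be told apart. Positions, symbols and exon lengths came from the GENCODE mouse release for mm9, which covers 37310 of the table's 37680 genes. Groups follow the GEO labels.

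Genes reaching 10 counts in 3 or more of the 14 libraries were scaled by TMM and tested with edgeR 4.0.16 (R 4.3.3) in the quasi-likelihood model of the 2 groups compared, as the study compared groups pairwise with DESeq2. The difference of the DSS responses was an interaction over all 14 libraries. Log2 fold changes are given with their standard error (SE). DESeq2 1.42.0, models of all 14 libraries or of 13 (leaving out Smad4 KO water replicate 1), other scalings and filters, blocks of replicate number or name prefix, and each library left out were alternatives. Models added after the data were seen left out WT water replicates 3 and 4, or these and Smad4 KO water replicate 1. Another, for DSS in Smad4 KO, left out Smad4 KO water replicates 1 and 4. Simulated counts held 200 changed genes, drawn only from genes above a minimum mean count. Recovery of genes with fewer reads was not tested. On these counts the fit for Smad4 KO against WT after DSS recovered 91 of 102 genes changed by 1 log2 unit and all 98 changed by 2, with 19 false calls. For the same genotypes on water it recovered 57 of 106 and 86 of 94, and for the difference of the DSS responses 23 of 101 and 88 of 99. In the measured counts Smad4 itself was not called on water (log2 fold change -0.95, SE 0.42, edgeR adjusted p = 0.23). After DSS Smad4 was called (log2 fold change -2.05, SE 0.09, edgeR adjusted p = 1.4e-05). Recovery in a Smad4 KO group that holds a library with Smad4 within the WT range was not tested.

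Members, substrate classes and lists were chosen with earlier results of these data known. Named genes are, per comparison and direction, those called or, where fewer than 3 were called, the 3 with the smallest p, then the 2 most abundant of each class, and a fixed list of 26 transporters. Slc13a1, a sulfate transporter, was moved to the inorganic ion class. Upstream sequences are RefSeq's, from GRCm38.p6. Not every gene that the naming rule picks is reported here.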

Additional observations from a re-analysis of the deposited data

Results flagged for a closer look

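In 112 groups of 4 libraries of the 56 named genes, 10 values of a gene in a library stood far from the other 3 of their group. The genes share the same libraries and many were named for their values, so this count is not set against a chance rate. Smad4 KO water replicate 4, with 21.4% mitochondrial reads, was the library in 5 of them. It was low for Slc10a5 at 7.16 CPM (29.1, 31.6 and 31.9 in the others) and for Slc5a1 at 174 CPM (201, 202 and 203), and high for Slc17a9 at 175 CPM (71.8, 74.6 and 81.0), Slc25a34 at 15.8 CPM (11.4, 11.5 and 11.8) and Slc50a1 at 123 CPM (71.5, 74.1 and 78.4). WT water replicate 4, with 32.8% mitochondrial reads, was low for Slc25a24 at 105.6 CPM (133, 138 and 138), Slc26a2 at 215 CPM (442, 449.6 and 459) and Slc27a2 at 12.5 CPM (16.8, 16.9 and 17.0). WT water replicate 2 was high for Slc16a1 at 364 CPM (265, 265 and 276), and Smad4 KO water replicate 2 was low for Slc29a1 at 16.8 CPM (23.7, 24.4 and 24.9). The part of the mitochondrial share in these values was not tested.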

How the results depend on the processing

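The number of the 200 genes called differed between alternatives (the share of all genes tested that the same alternative called is in parentheses), and no named fold change turned its sign under any alternative. Between genotypes after DSS, 3 were called, against 15 by DESeq2 (3.3%), 11 without the count filter (1.37%), 1 with a name prefix block (0.258%), 0 with all 14 libraries in 1 model and 0 with 13. Leaving out each library gave 1 to 3, with 1, Slc13a2, without WT DSS replicate 3 (0.271%). On water 0 were called, against 12 by DESeq2 (5.08%), 19 with all 14 libraries in 1 model (8.44%), 19 with 13 (7.61%), 2 without the count filter (0.156%) and 6 with a replicate block (3.13%). Leaving out each library gave 0 to 22 on water, with 22 without Smad4 KO water replicate 4, a library of high mitochondrial share (11.5%), and 0 in every other case. For DSS in WT 0 were called, against 20 by DESeq2 (11.7%), 4 without the count filter (1.5%) and 1 with a name prefix block (0.324%). Leaving out each library gave 0 to 9 in WT, with 9 without WT water replicate 2 (2.34%) and 1 without WT water replicate 4 (0.165%). For DSS in Smad4 KO 0 were called, against 5 by DESeq2 (0.469%) and 1, Slc25a4, with all 14 libraries in 1 model (0.0661%), and leaving out each library gave 0 to 0, as it did for the difference of the DSS responses. Models chosen after seeing the data left out WT water replicates 3 and 4, or these and the library labelled Smad4 KO water replicate 1. For DSS in Smad4 KO, Smad4 KO water replicates 1 and 4 were left out. These models called 0 in each comparison they apply to. Those for genotype on water and for the difference of the DSS responses kept Smad4 KO water replicate 4, although its mitochondrial share was high. The cause of these shifts was not tested.

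Deviations from the group means of the 19 same-numbered pairs correlated between -0.08 and 0.35, with a median of -0.02. The value of 0.35 was that of replicate 4 of WT and of Smad4 KO on water, both of high mitochondrial share. Such correlations do not show a pairing by replicate number and cannot exclude one. Apart from the water comparison, the replicate block left each count as it was. A name prefix block for DSS in Smad4 KO could not be fitted, since no prefix is shared between its water and DSS libraries, and prefix and treatment cannot be told apart there. Of 540 alternative values of the 30 named log2 fold changes, 467 stayed on the same side of the threshold, 59 passed it and 14 no longer did. Depth limits the low genes most, such as Slc17a1 and Slc2a6, with few reads in some libraries.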
